A study of Mus musculus with 26 samples.

Results

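The β subunits of the sodium-potassium ATPase, the pump that exchanges sodium for potassium across the plasma membrane, were described in mouse striatum. The members were the genes Atp1b1, Atp1b2 and Atp1b3, taken by gene symbol. Each gene had 1 transcript in every table, so the β subunits were 3 of the 8576 transcripts measured for GS LRRK2 TG, 3 of 8576 for GS/DA LRRK2 TG and 3 of 9561 for LRRK2 KO. The study asked how LRRK2, a kinase mutated in familial Parkinson's disease, affects translation in the striatum. Ribosome footprints, the pieces of mRNA that ribosomes protect from nuclease, were sequenced to measure synthesis, and RNA-Seq of the same tissue measured the mRNA. All groups were C57BL/6 mice 3 months of age. GS LRRK2 TG mice carried a transgene for LRRK2 with the G2019S mutation, which raises kinase activity, and GS/DA LRRK2 TG mice carried G2019S/D1994A LRRK2, in which a further change removes kinase activity. Both transgenes came from high-copy lines driven by CaMKII-tTA, a forebrain neuron driver of the Tet-off kind, with doxycycline withdrawn after weaning, so expression was limited to cells in which that driver is active. Non-transgenic littermates served as non-TG control, LRRK2 KO mice lacked Lrrk2 and were set against WT mice, and tissue was pooled from mice of both sexes. The labels listed 2 footprint and 2 RNA-Seq samples of striatum for each transgenic group, 3 and 3 for non-TG control, and 3 and 2 for both WT and LRRK2 KO. Midbrain samples were not used here. By the labels, both transgenic genotypes draw on the same non-TG control samples, so their results cannot be taken as independent of each other. Which of those samples stand behind each control mean was not determined here.

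The pump is built of a catalytic α subunit, which binds ATP and the ions, and a β subunit, a glycoprotein that crosses the membrane once and is needed for the α subunit to fold, leave the endoplasmic reticulum and reach the cell surface. In the brain, Atp1b1 encodes the β subunit found mainly in neurons, Atp1b2 encodes the β subunit of astrocytes that was first known as a glial adhesion molecule, and Atp1b3 encodes a β subunit present in many cell types. The sodium gradient that the pump keeps up drives the uptake of glutamate and GABA and restores the ion balance after action potentials.

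The labels were first checked against Lrrk2 itself, in normalized reads, that is reads divided by the size factor of their library. Each of 10 of the 12 deposited means could be traced back to the whole reads of 2 libraries, called A and B below, and the control columns for GS LRRK2 TG could not, so the number of libraries in them is not known. In footprints, Lrrk2 stood at 3320 and 7052 normalized reads in the GS LRRK2 TG libraries against a control mean of 2524. The GS/DA LRRK2 TG libraries held 4766 and 7267 against 1224 and 1445 in non-TG control, and the LRRK2 KO libraries 150 (149.7) and 102 against 690.1 and 400.3 in WT. Footprints of Lrrk2 were thus above control in both transgenic groups and below WT in both LRRK2 KO libraries, with no overlap where libraries could be compared. The control mean of 2524 for GS LRRK2 TG was itself above both libraries of the other non-TG control, although Atp1b1 had the lower control mean there, 15821 against 19517. The cause was not tested, and the change of Lrrk2 in GS LRRK2 TG depends on that mean. The changes of the means on the log2 scale were 1.039 in GS LRRK2 TG, 2.17 in GS/DA LRRK2 TG and -2.12 in LRRK2 KO. Even Lrrk2 did not pass limma in footprints without a block, at an adjusted p (Benjamini-Hochberg) of 0.877 in GS/DA LRRK2 TG and 1.00 in LRRK2 KO, and it passed in both with matched libraries as a block. In LRRK2 KO the block fit gave the named genes 1 common SE, 0.190 in footprints, so that pass did not use the spread of Lrrk2 itself. RNA-Seq matched the label in LRRK2 KO, with 270.0 and 423 normalized reads of Lrrk2 against 733 and 1278 in WT. In the transgenic tables RNA-Seq showed no excess of Lrrk2: GS LRRK2 TG held 214 and 3550 (3549.6) normalized reads, GS/DA LRRK2 TG 404 and 5038, and the libraries of the latter's non-TG control 560.2 and 5233. For RNA-Seq and for the ratios built on it, the transgenic groups therefore rest on their labels.

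The tissue label was checked against marker genes. Of the spiny neuron list, the output neurons of the striatum, 10 of 12 symbols were listed, led by Ppp1r1b and Penk, and the other 2 are alternative names of listed genes. The summed footprints of that list were 142436 normalized reads in the non-TG control of GS/DA LRRK2 TG, above the 123677 of 8 of 8 neuron genes led by Snap25. In WT it was the lower of the pair, at 30296 against 42960 (42959.7). Astrocyte genes were listed in 10 of 10 cases, led by Glul, microglia genes in 4 of 5 (5 in the LRRK2 KO table), led by Csf1r, and blood genes in 3 of 6, led by Hba-a2. No symbol of 5 endothelial genes was listed. Choroid plexus genes, which mark tissue of the neighbouring ventricle, were listed in 3 of 6 cases, with Ttr and Enpp2 the most abundant and Folr1, Kl and Kcnj13 unlisted. Their summed footprints were 26078 and 5320 (5319.9) normalized reads in libraries A and B of non-TG control, 5495 and 10984 in GS/DA LRRK2 TG, and 3903 and 5000.1 in GS LRRK2 TG. The libraries of non-TG control thus differed far more than those of GS LRRK2 TG.

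The libraries of a group differed from each other. This was measured over transcripts with means above 300 in both genotype and control. They numbered 6812 in footprints and 6994 in RNA-Seq for GS/DA LRRK2 TG, and 2970 and 4456 for LRRK2 KO. The SD of the log2 ratio of library A to library B was 0.356 in footprints and 1.47 in RNA-Seq of non-TG control. WT had 0.812 and 0.777. RNA-Seq libraries thus differed more than footprint libraries in non-TG control and about as much in WT. Library A of a genotype was matched to library A of its control because the same transcripts set A apart from B in both. GS LRRK2 TG, whose own control libraries were not recovered, was matched to the non-TG control of GS/DA LRRK2 TG instead. Over transcripts above that minimum, the rank correlation of the difference between A and B was 0.770 in footprints and 0.980 in RNA-Seq for GS/DA LRRK2 TG. It was 0.809 and 0.713 for LRRK2 KO, and 0.661 and 0.982 for GS LRRK2 TG. Transcripts are not independent of each other. Footprint libraries held between 7500252 and 19825623 reads in the transgenic tables and between 2862310 and 6051183 in the LRRK2 KO table. RNA-Seq libraries held between 8696465 and 14546606, and between 3152653 and 10879892. The letters A and B do not link a footprint library to an RNA-Seq library.

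Of the β subunits, Atp1b2 showed this division most in RNA-Seq of the transgenic tables. Its RNA-Seq level was 2085 and 108 normalized reads in libraries A and B of non-TG control, 2278 and 133 in GS/DA LRRK2 TG and 2299 and 139 in GS LRRK2 TG. Library A was high and library B low in all 3 groups, by 19.2-fold, 17.1-fold and 16.5-fold. The letters were assigned from such shared differences, so a common direction is not independent of the matching, here or in LRRK2 KO below. Smaller differences between the same libraries were seen in 98.9%, 97.4% and 97.0% of the transcripts with a group mean above 300. Atp1b1 and Atp1b3 differed between those RNA-Seq libraries by at most 1.37-fold and 1.16-fold. The footprints of Atp1b2 in the same groups differed by 1.02-fold, 1.11-fold and 1.13-fold. Library A thus supplied nearly all of these 3 Atp1b2 RNA-Seq means, and the TE built on them rests on that library.

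In footprints per kilobase of coding sequence, the scale on which genes can be compared, the order was Atp1b1, then Atp1b2, then Atp1b3 in every group. Non-TG control of the GS/DA LRRK2 TG table held 21401 normalized reads per kilobase of Atp1b1, 3351 of Atp1b2 and 1258 of Atp1b3. In WT the levels were 5828, 581 and 219 per kilobase, on a scale of their own because each table was normalized by itself. The order held in each of the 10 footprint libraries recovered, and no library of a lower subunit reached the level of the next. Atp1b1 made up 82.3% of all β footprints per kilobase in that non-TG control, 82.0% in GS/DA LRRK2 TG, 82.6% and 81.5% in control and GS LRRK2 TG of the other transgenic table, 87.9% in WT and 87.6% in LRRK2 KO. Atp1b2 supplied between 8.76% and 13.2%, and Atp1b3 between 3.30% and 5.55%. Ranked by the group mean without division by coding length, Atp1b1 stood above 99.3% of the transcripts of its table in footprints of non-TG control. On that scale Atp1b2 stood above 88.5% and Atp1b3 above 63.6%.

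**Figure D1:**
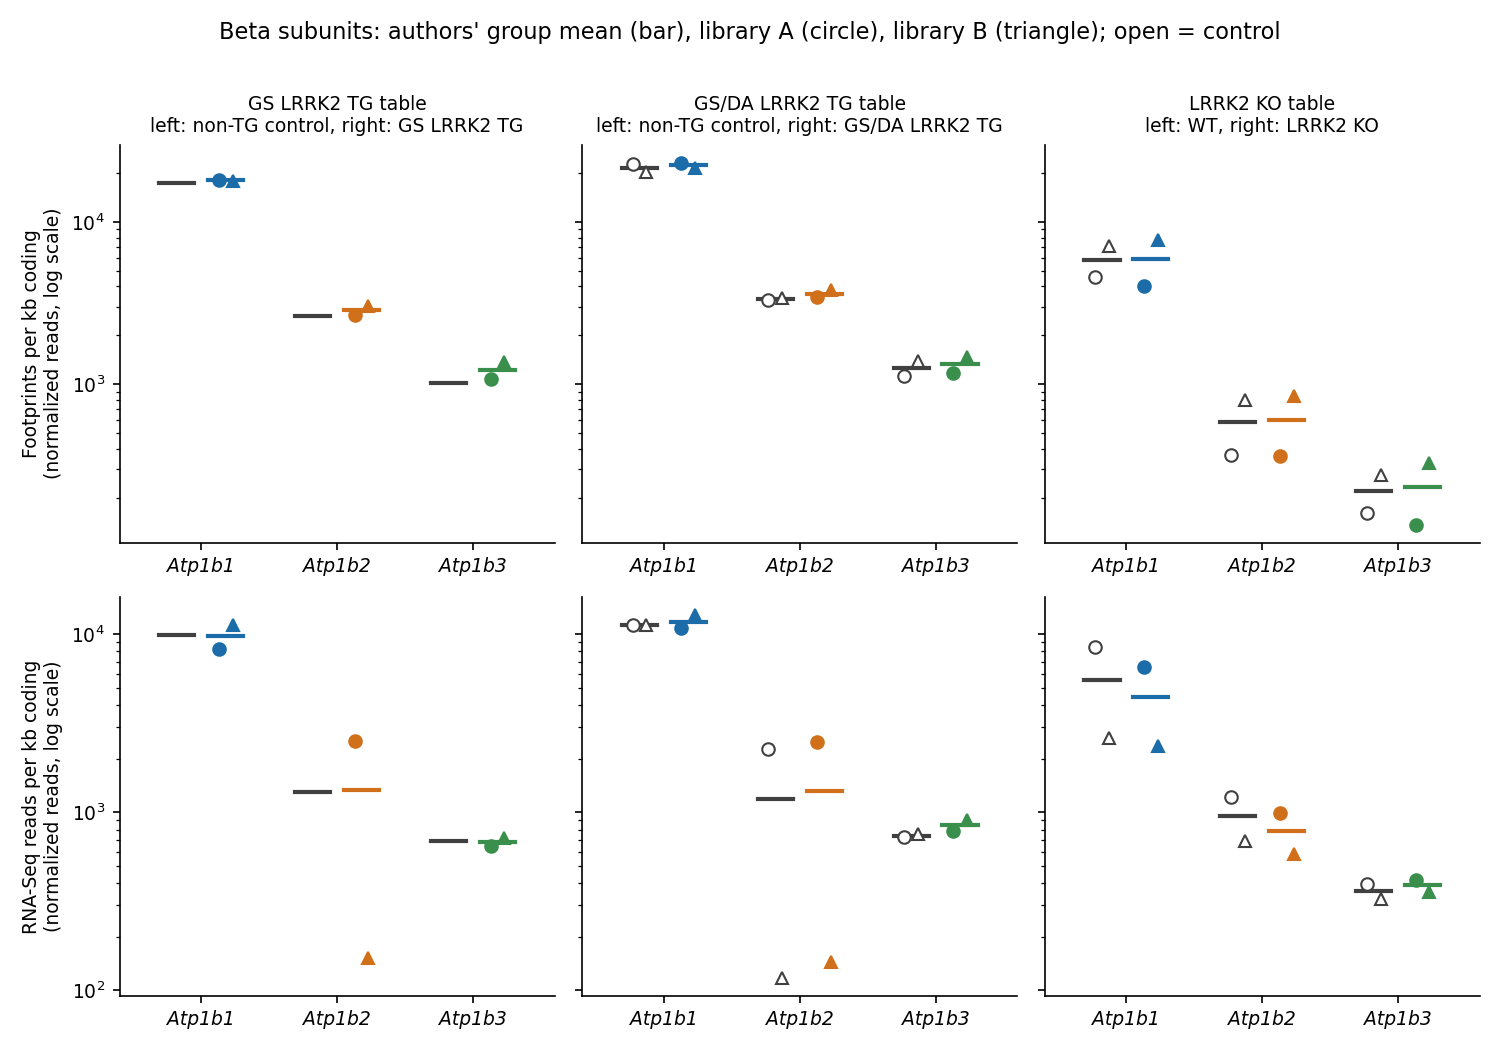
Normalized reads per kilobase of coding sequence (log axis) of Atp1b1, Atp1b2 and Atp1b3 in footprints and RNA-Seq of the 3 tables; bars are group means, circles library A, triangles library B, open symbols control and filled symbols the genotype. Footprints keep the order Atp1b1, Atp1b2, Atp1b3, and the Atp1b2 RNA-Seq libraries of the transgenic tables lie far apart, at 2271 and 118 in non-TG control.

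In RNA-Seq the means had the same order, with 11242, 1195 and 741 normalized reads per kilobase of Atp1b1, Atp1b2 and Atp1b3 in the non-TG control of GS/DA LRRK2 TG and 5528, 957 and 361 in WT. By library, Atp1b2 lay above Atp1b3 in library A of that control (2271 against 729 per kilobase) and below it in library B (118 against 752). The order of Atp1b2 and Atp1b3 mRNA therefore changed with the library in the transgenic tables. In WT and LRRK2 KO both RNA-Seq libraries had Atp1b2 above Atp1b3.

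In shares of the summed β level per kilobase, RNA-Seq gave Atp1b1 85.3%, Atp1b2 9.06% and Atp1b3 5.62% in the non-TG control of GS/DA LRRK2 TG, and 80.7%, 14.0% and 5.27% in WT. Footprints of WT held 87.9% of Atp1b1. Atp1b1 thus had the largest share by far in mRNA as in footprints, and its share of footprints was above its share of mRNA in WT and, by the means, below it in non-TG control. The latter direction depends on the low Atp1b2 of RNA-Seq library B, and with library A alone it is the reverse.

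Translation efficiency (TE) was taken as footprints over RNA-Seq of the same transcript, on the log2 scale. In the non-TG control of GS/DA LRRK2 TG TE was 0.93 for Atp1b1, 1.49 for Atp1b2 and 0.76 for Atp1b3, above 88.4%, 97.2% and 83.7% of transcripts. In the control of the GS LRRK2 TG table it was 0.80, 1.02 and 0.56, above 90.4%, 94.4% and 83.9%. All 3 β subunits thus ranked high in TE in the transgenic tables, Atp1b2 with the reservation on its RNA-Seq libraries. In WT, Atp1b1 at 0.08 lay above 90.6% of transcripts, while Atp1b2 and Atp1b3, both at -0.72, lay above 45.0% and 44.9%. Of the 3 genes, Atp1b1 alone ranked high in all 3 controls by the means. In WT the positive sign of the Atp1b1 TE rests on RNA-Seq library B. The footprint mean of 5315 lay below the 7709 normalized reads of library A and above the 2373 of library B. Its rank with either library alone was not determined.

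The genes lie on different chromosomes of the mouse build mm9, all on the minus strand: Atp1b1 (uc007dip.1) at chr1:166367398-166388486, Atp1b2 (uc007jqo.1) at chr11:69413238-69419444 and Atp1b3 (uc009rck.1) at chr9:96233099-96264766. Their coding lengths are alike, with 912, 918 and 834 bases. The predicted folding energy of the 5′UTR, a score the authors took from a UCSC table, was -231.9 kcal/mol for Atp1b1, -233.81 for Atp1b2 and -43.8 for Atp1b3. Only 15.5% and 15.1% of transcripts had a lower energy, that is a more structured 5′UTR, than Atp1b1 and Atp1b2, against 72.9% for Atp1b3. The coding sequences of Atp1b1 and Atp1b2 were near the middle in GC content, at 50.6% and 51.4%, and that of Atp1b3 was poor in GC, at 44.3%, with 9.37% of transcripts lower. The start codons are shown with their surroundings because the bases around ATG are where an initiating ribosome recognises a start, 21 bases of each on the coding strand with the start codon in capitals.
Atp1b1: tgagcagacaccATGgcccgc
Atp1b2: cgtgcctccaagATGgtcatc
Atp1b3: cacacgcccatcATGacgaag
An A stands 3 bases before the start codon in each of the 3 genes, and the base after it is G in Atp1b1 and Atp1b2 and A in Atp1b3.

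In GS LRRK2 TG, where the active kinase was overexpressed, the β subunits showed small positive differences in footprints, greatest for Atp1b3. Atp1b3 had 898 and 1148 normalized reads in the footprint libraries against a control mean of 846, so both libraries were above that mean. Atp1b2 had 2459.9 and 2779 against 2418, and Atp1b1 had 16493 and 16378 against 15821. All 6 library values lay above the control mean of their gene, but the spread among the control libraries is not known. By the means 51.2% of all transcripts were above control, and the share with both libraries above was not determined here. On the log2 scale the footprint changes were 0.05 for Atp1b1, 0.12 for Atp1b2 and 0.27 for Atp1b3, beside a median of 0.00 over the table. The 0.27 of Atp1b3 was above 97.6% of transcripts, and its libraries differed by 1.28-fold. In RNA-Seq, Atp1b1 had 7531 and 10281 normalized reads against a control mean of 9064, Atp1b2 2299 and 139 against 1191, and Atp1b3 540.5 and 601 against 575. The libraries lay on both sides of the control mean for each gene, and the changes of the means were -0.03, 0.03 and -0.01. No test was made for GS LRRK2 TG, because its control libraries could not be recovered.

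The TE difference in GS LRRK2 TG was 0.08 for Atp1b1, 0.08 for Atp1b2 and 0.28 for Atp1b3. As a z score, the distance from the mean TE difference in SDs over all transcripts of the table, these were 0.13, 0.14 and 1.08. None of the 3 reached 1.5 or -1.5, which 11.9% of the 8576 transcripts did. When a GS LRRK2 TG library was left out, the TE difference of Atp1b2 took both signs. That of Atp1b3 moved but stayed positive, as given at the end. Marker sums in GS LRRK2 TG were 1.05-fold of control for astrocyte footprints and 0.958-fold for neuron footprints, with 53628 and 53546 normalized reads of astrocyte genes in libraries A and B and 91683 and 99381 of neuron genes. Spiny neuron footprints stood at 0.927-fold, microglia footprints at 1.06-fold, blood footprints at 0.939-fold and choroid plexus footprints at 0.539-fold. Their part in the values of the β subunits was not tested. In such bulk tissue, fewer cells of a type and less RNA per cell cannot be told apart.

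In GS/DA LRRK2 TG, where the kinase was inactive, the β subunits also showed small positive differences in footprint means. For Atp1b1 and Atp1b2 these were about the size of the 0.05 and 0.12 of GS LRRK2 TG on the log2 scale. For Atp1b3 the difference was smaller than the 0.27 of GS LRRK2 TG. Atp1b1 footprints were 21122 and 19677 normalized reads in libraries A and B against 20664 and 18371 in non-TG control. Atp1b2 footprints were 3138 and 3468 against 3044 and 3108, and Atp1b3 footprints were 981 and 1231 against 938 and 1159.8. The groups overlapped for Atp1b1 and Atp1b3 and did not for Atp1b2, whose lowest transgenic library exceeded its highest control library by less than the transgenic libraries differed. Of all transcripts, 12.01% had both transgenic footprint libraries above both of control and 12.2% had both below. The log2 changes of the means were 0.06, 0.10 and 0.08, beside a median of -0.01. Within the matched libraries A and B they were 0.03 and 0.10 for Atp1b1, 0.04 and 0.16 for Atp1b2 and 0.06 and 0.09 for Atp1b3, positive in each pair. With the libraries paired the other way they were -0.07 and 0.20 for Atp1b1, 0.19 and 0.01 for Atp1b2 and 0.39 and -0.24 for Atp1b3. The common sign of Atp1b1 and Atp1b3 thus depends on the matching. By the means 47.5% of all transcripts were above control. The share of all transcripts with the same sign in both pairs was not determined here, for any comparison.

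In RNA-Seq of the same mice, Atp1b1 had 9829 and 11634 normalized reads against 10243 and 10263 in non-TG control, and Atp1b3 had 653 and 758 against 608 and 627. Atp1b2 had 2278 and 133 against 2085 and 108. The groups overlapped for Atp1b1 and Atp1b2, while both Atp1b3 libraries of GS/DA LRRK2 TG lay above both of control, as did those of 1.77% of transcripts. The log2 changes of the means were 0.07, 0.14 and 0.19 for Atp1b1, Atp1b2 and Atp1b3, beside a median of 0.06 over the table. Within matched libraries A and B they were -0.06 and 0.18 for Atp1b1, 0.13 and 0.29 for Atp1b2, and 0.10 and 0.27 for Atp1b3. The TE difference was -0.00 for Atp1b1, -0.03 for Atp1b2 and -0.12 for Atp1b3, with z scores of 0.42, 0.24 and -0.23. None of the 3 reached the z cutoff, which 11.01% of transcripts did. When a library was left out, the RNA-Seq change and the TE difference of Atp1b2 took both signs, as given at the end.

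Fitted with limma over 8426 transcripts, the footprint change was 0.07 (SE 0.13) for Atp1b1, 0.10 (SE 0.12) for Atp1b2 and 0.07 (SE 0.17) for Atp1b3. In RNA-Seq the fitted changes were 0.06 (SE 0.46), 0.20 (SE 2.09) and 0.19 (SE 0.46), the large error of Atp1b2 reflecting its unlike libraries. The Benjamini-Hochberg adjusted p of limma was 1.00 for each of the 3 genes in footprints, in RNA-Seq and in TE. None of the 3 passed, and of all transcripts tested limma called 0% at an adjusted p under 0.05 in each of the 3 measures. At an unadjusted p under 0.05 limma called 156 transcripts (1.85%) in footprints and 0 in RNA-Seq and TE, none of them a β subunit. With the matched libraries as a block, the limma adjusted p (Benjamini-Hochberg) of the footprint changes was 0.727, 0.588 and 0.684, while 23 transcripts passed.

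Marker sums beside the β values of GS/DA LRRK2 TG were 1.06-fold of control for astrocyte footprints and 1.036-fold for neuron footprints, and 1.07-fold and 1.097-fold in RNA-Seq. Astrocyte genes resolved in each library held 40538 and 36483 normalized footprint reads in libraries A and B of control over 9 of the 10 genes and 67691 and 65520 (65519.6) in GS/DA LRRK2 TG over all 10. Spiny neuron footprints were 0.808-fold of control, microglia footprints 1.098-fold, blood footprints 0.8002-fold and choroid plexus footprints 0.525-fold. Among these lists the spiny neuron, blood and choroid plexus sums were the ones below control, where no β subunit was. The choroid plexus sum was so because of library A of control, and both GS/DA LRRK2 TG libraries were above library B of control. Their part in the β values was not tested.

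In LRRK2 KO, the loss of Lrrk2 was set against WT. Atp1b1 footprints were 3691 and 7074 normalized reads in libraries A and B of LRRK2 KO against 4153 and 6477 in WT. Atp1b2 footprints were 329 and 774 against 334 and 732, and Atp1b3 footprints were 113 and 272 against 135 and 230.5. Library B was the higher in both groups for all 3 genes, and the groups overlapped for each. The log2 changes of the means were 0.02 for Atp1b1, 0.05 for Atp1b2 and 0.08 for Atp1b3, beside a median of 0.02. Within matched libraries A and B the changes were -0.17 and 0.13 for Atp1b1, -0.02 and 0.08 for Atp1b2, and -0.25 and 0.24 for Atp1b3, so each gene was lower in LRRK2 KO in library A and higher in library B.

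RNA-Seq gave lower means of Atp1b1 and Atp1b2 in LRRK2 KO. Atp1b1 had 5952 and 2139 normalized reads against 7709 and 2373 in WT, and Atp1b2 had 911 and 532 against 1123 and 634. Library A was the higher in both groups, and within matched libraries LRRK2 KO was the lower for both genes, by -0.37 and -0.15 for Atp1b1 and -0.30 and -0.25 for Atp1b2 on the log2 scale. Atp1b3, with 349 and 299 against 330.0 and 272, was the higher in LRRK2 KO, by 0.08 and 0.14. The unmatched groups overlapped for all 3 genes. The changes of the means were -0.32, -0.28 and 0.11, with 8.66% and 10.8% of transcripts lower than Atp1b1 and Atp1b2. When a library was left out, the changes of Atp1b1 and Atp1b2 took both signs, as given at the end.

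The TE difference in LRRK2 KO was 0.34 for Atp1b1, 0.33 for Atp1b2 and -0.03 for Atp1b3. Each of these differences took both signs when a library was left out, as given at the end. The z scores were 1.16, 1.147 and -0.18, and none of the 3 reached the cutoff, which 12.3% of 9561 transcripts did. For Atp1b1 and Atp1b2 the difference came from the lower RNA-Seq means, since the footprint means were within 0.05 of WT. Fitted with limma over 9539 transcripts, the RNA-Seq change was -0.26 (SE 0.72) for Atp1b1, -0.27 (SE 0.42) for Atp1b2 and 0.11 (SE 0.27) for Atp1b3. The fitted footprint changes were -0.02 (SE 0.43), 0.03 (SE 0.59) and -0.00 (SE 0.52). The Benjamini-Hochberg adjusted p of limma was 1.00 for each gene and measure. Of all transcripts limma called 0% at an adjusted p under 0.05 in footprints, RNA-Seq and TE, and at an unadjusted p under 0.05 it called 16 (0.168%), 7 (0.0734%) and 4 (0.0419%), none of them a β subunit. With matched libraries as a block 15 transcripts passed in footprints, 11 in RNA-Seq and 0 in TE, Lrrk2 among the first 2 counts, and the limma adjusted p of the β subunits (Benjamini-Hochberg) stayed at 0.996 or above. The SE of that fit was the same for all genes named, 0.190 in footprints and 0.221 in RNA-Seq.

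Beside the RNA-Seq values of LRRK2 KO, neuron genes summed to 0.822-fold of WT, at 36593 and 26567 normalized reads in libraries A and B against 50313 and 26538. Astrocyte genes summed to 0.889-fold, at 16892 and 14915 against 20926 (20925.5) and 14863. Both sums were lower in library A of LRRK2 KO and near WT in library B, whereas Atp1b1 and Atp1b2 were lower in both. Neuron and astrocyte footprints were 0.966-fold and 0.982-fold of WT, blood footprints 0.631-fold and microglia footprints 1.1499-fold. Blood genes held 1537 and 2716 (2715.5) normalized footprint reads in LRRK2 KO against 1364 and 5375 in WT, and microglia genes 109 and 704 against 107 and 600.4, so the groups overlapped. In RNA-Seq, spiny neuron genes stood at 1.05-fold, choroid plexus genes at 0.847-fold, microglia genes at 1.26-fold and blood genes at 0.854-fold. The part of these sums in the RNA-Seq values of Atp1b1 and Atp1b2 was not tested.

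**Figure D2:**
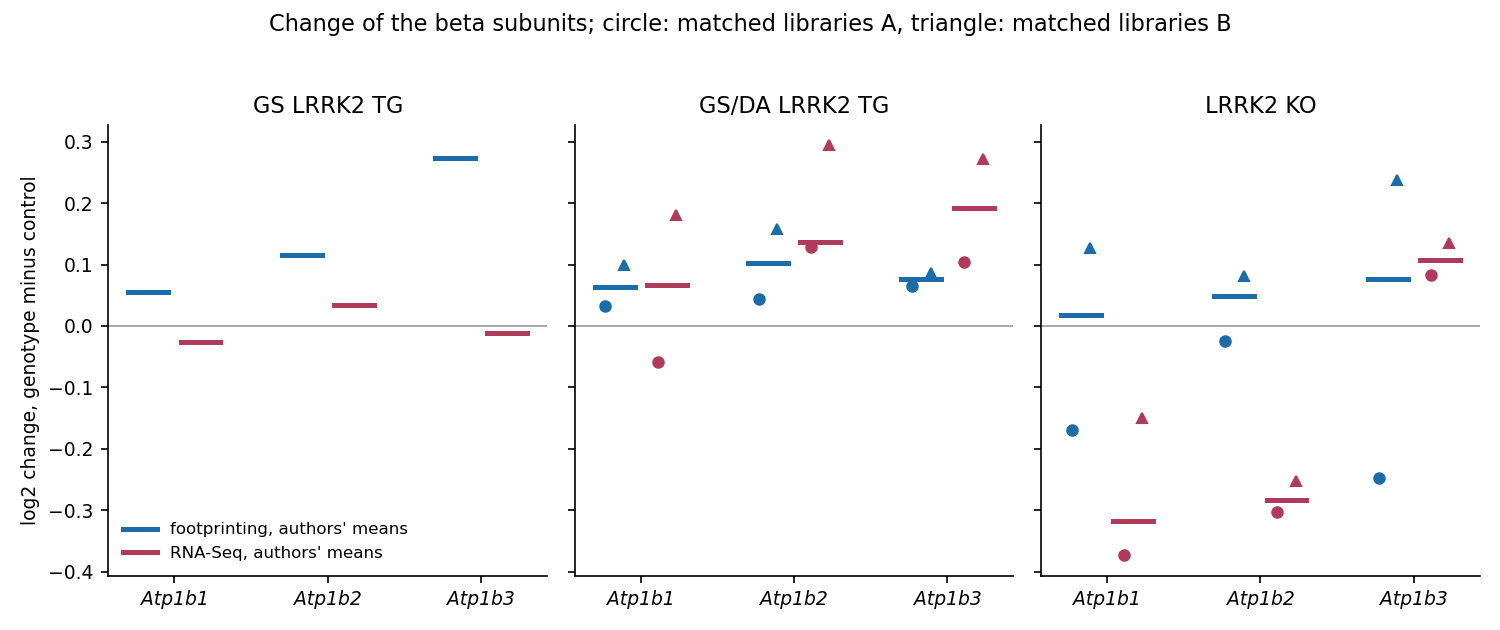
Log2 change of Atp1b1, Atp1b2 and Atp1b3 against control in footprints and RNA-Seq of the 3 comparisons; bars are changes of the deposited means, circles changes within matched libraries A and triangles within matched libraries B, which GS LRRK2 TG does not have. The bars reach from -0.32 (Atp1b1 RNA-Seq, LRRK2 KO) to 0.27 (Atp1b3 footprints, GS LRRK2 TG).

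Set side by side, footprint means of the β subunits were above control in all 9 cases, 3 genes in each of 3 comparisons, by 0.02 to 0.27 on the log2 scale. Of all transcripts 51.2%, 47.5% and 54.4% were above control with the active kinase, the inactive kinase and the knockout. This count of the β subunits depends on the use of means: averaged within matched libraries on the log2 scale, LRRK2 KO gave -0.0214 for Atp1b1 and -0.00512 for Atp1b3, and all 3 genes were lower in its library A. The comparisons with non-TG control are also not independent. The median footprint change of the 3 genes was 0.12 in GS LRRK2 TG, 0.08 in GS/DA LRRK2 TG and 0.05 in LRRK2 KO, against 0.00, -0.01 and 0.02 over all transcripts. Their median TE difference was 0.08, -0.03 and 0.33, against 0.02, -0.05 and 0.02. In each comparison that median was the value of Atp1b2, which took both signs when a library was left out. None of the differences in GS/DA LRRK2 TG and LRRK2 KO passed a test, those in GS LRRK2 TG had none, and whether they differ between genotypes was not tested.

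Proteins that act with the β subunits were read in the same way. Of 7 FXYD genes, small membrane proteins that bind the assembled pump and tune its ion affinity, 3 were listed, Fxyd1 (phospholemman), Fxyd6 and the neuronal Fxyd7. In GS/DA LRRK2 TG, Fxyd7 had 959 and 884 normalized footprint reads against 694 and 732 in non-TG control, and Fxyd6 had 409.5 and 484 against 346 and 366. Both genes had every GS/DA LRRK2 TG library above every control library, like 12.01% of transcripts, with changes of the means of 0.37 and 0.33. Neither passed limma, with an adjusted p (Benjamini-Hochberg) of 1.00, or of 0.156 and 0.179 with matched libraries as a block. Fxyd1 had a change of -0.02 there. In GS LRRK2 TG the footprint changes of Fxyd1, Fxyd6 and Fxyd7 were 0.06, 0.12 and 0.12, and in LRRK2 KO 0.24, -0.12 and -0.01, and no FXYD gene reached the z cutoff in any comparison. Within matched libraries A and B of LRRK2 KO, Fxyd1 had -0.58 and 0.53 and Fxyd6 0.25 and -0.25, so neither kept its sign.

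Of 4 NKAIN genes, whose proteins bind the β subunit of the pump, Nkain2 and Nkain4 were listed in the transgenic tables and Nkain1 besides in the LRRK2 KO table. Nkain4 had a TE difference of -0.34 (z -1.81) in GS LRRK2 TG, past the cutoff, and of 0.06 in GS/DA LRRK2 TG and -0.12 in LRRK2 KO. Of all transcripts 11.9% were past the cutoff in GS LRRK2 TG and 12.3% in LRRK2 KO. The GS LRRK2 TG libraries of Nkain4 differed by 1.53-fold in footprints and 1.93-fold in RNA-Seq. Whether its call holds with either library alone was not tested. Nkain1 had -0.44 (z -1.67) in LRRK2 KO, on footprint means of 37.2 in WT and 29.3 in LRRK2 KO and with RNA-Seq changes of opposite sign within matched libraries A and B, 1.012 and -0.36. Nkain2 stayed within the cutoff in all 3, with TE differences of 0.14, -0.13 and 0.01. The median footprint change of the NKAIN genes listed was -0.09 in GS LRRK2 TG, -0.02 in GS/DA LRRK2 TG and -0.00 in LRRK2 KO. Neither Atp1b4 nor Atp4b, the remaining genes of the β family, was listed.

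Of 10 genes for assembly and anchoring of the pump, 7 were listed, among them Wfs1, an endoplasmic reticulum protein that binds Atp1b1, the chaperones Canx, Calr and Hspa5, and the anchor Ank2. Their median footprint change was 0.02 in GS LRRK2 TG, 0.12 in GS/DA LRRK2 TG and 0.07 in LRRK2 KO, and none reached the z cutoff. All 12 listed genes for transporters that the sodium gradient drives were measured, with median footprint changes of 0.07, 0.03 and 0.10. Past the z cutoff were 0 up and 1 down in GS LRRK2 TG (Slc8a1, z -2.50), 1 up and 1 down in GS/DA LRRK2 TG (Slc8a1, z 3.10, and Slc12a2, z -1.56) and 3 up and 0 down in LRRK2 KO (Slc8a1, z 3.48, Slc1a2, z 2.81, and Slc1a1, z 2.397), named after their values were seen. Of all transcripts 11.9%, 11.01% and 12.3% were past it. The calls in LRRK2 KO rest mostly on RNA-Seq library A, with RNA-Seq changes within matched libraries A and B of -1.52 and -0.11 for Slc8a1, -1.17 and 0.02 for Slc1a2, and -0.70 and 0.06 for Slc1a1. Slc12a2 in GS/DA LRRK2 TG likewise had -0.63 and 0.60, so its call depends on library B. Slc8a1, a sodium-calcium exchanger, had unlike RNA-Seq libraries as Atp1b2 did, with 51.0 and 1788 normalized reads in non-TG control, here with library B the higher. Its footprints were 772 and 947 normalized reads in GS/DA LRRK2 TG against 426 and 591 in control. Both libraries thus lay above both of control, like those of 12.01% of transcripts. The limma adjusted p (Benjamini-Hochberg) of that change was 1.00, and 0.022 with matched libraries as a block.

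The transcripts most like each β subunit were found by the Pearson correlation over 20 recovered libraries, on log2 normalized reads centred within table and assay, among the 1527 transcripts whose group means all reached 500. Libraries of a group share their preparation, so these values describe the libraries as much as the genes. Atp1b1 was most like Tmx2 (r 0.972), Pgrmc1 (0.943) and H2afz (0.935). Atp1b2 was most like Ndufa11 (0.991), Mif (0.990) and Pdxp (0.990), and Atp1b3 like Lamp1 (0.890), Sorl1 (0.832) and Ntrk2 (0.825). The β subunits were less like each other, with r of 0.569 for Atp1b1 and Atp1b3, 0.0907 for Atp1b1 and Atp1b2, and 0.104 for Atp1b2 and Atp1b3.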

How the data were processed

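The authors aligned reads to mm9 (CASAVA 1.8, TopHat2 2.0.11, Bowtie2 2.2.2), counted reads in coding sequence and deposited, for each group and assay, a mean normalized by the authors with DESeq 1.20, which is a signal with no error. The folding energy is a score deposited by the authors. The authors' own comparison columns hold their findings and were not used.

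TE, TE differences and z scores were computed from the deposited means with a pseudocount of 0 over all transcripts of a table. The 2 libraries behind a mean were recovered as the pair of whole read counts that fits it, a step tested on simulated data, and 98.7% to 99.96% of transcripts had 1 such pair per column. limma 3.58.1 (R 4.3.3) was fitted per table to log2 of normalized reads plus 10, to 4 libraries per assay and to 8 for TE as the interaction, with Benjamini-Hochberg adjustment over all transcripts fitted. Coding lengths and start codons came from the NCBIM37 annotation and genome, and GC content was had for 97.0% of transcripts. Python 3.11.15, numpy 2.4.6, pandas 2.3.3, scipy 1.17.1 and matplotlib 3.10.9 were used. The labels list 3 samples for some groups whose means held 2 libraries, and which samples these are was not determined here.

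Named were the β subunits, listed FXYD and NKAIN genes, leading markers, Lrrk2, the most alike transcripts and, outside this rule, some assembly partners and the transporters past the z cutoff. The members and lists were chosen with earlier results of these data known. The comparison of alpha with beta subunit synthesis is not reported here.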

Additional observations from a re-analysis of the deposited data

How the results depend on the processing

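No paired analysis was possible because the deposited columns carry no replicate numbers to pair by. The block used instead joins libraries matched by their shared differences in these data, which need not be the pairs of the labels. With it, limma passed 23 transcripts in footprints of GS/DA LRRK2 TG, 15 in footprints and 11 in RNA-Seq of LRRK2 KO, and 0 in the other 3 fits; no β subunit passed. Over all limma alternatives the adjusted p of the β subunits ran from 0.588 to 1.00 in footprints, 0.946 to 1.00 in RNA-Seq and 0.756 to 1.00 in TE. Centring each comparison on its median, a pseudocount of 10 and means of log2 values moved no β change by more than the SD between its libraries, which for GS LRRK2 TG is that of the transgenic libraries alone. A filter on low means and a median-based z score left every β z score within the cutoff.

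Leaving out each library in turn moved the values as follows, and the cause was not tested. For the deposited means, given are the moves beyond the SD between libraries, then some of those within it. A group left with 1 library was assumed to vary like the others. The count in footprints of GS/DA LRRK2 TG ran from 2 to 27. From the deposited means, Atp1b2 ran from -3.09 to 0.95 in RNA-Seq and -0.83 to 3.21 in TE of GS LRRK2 TG. In GS/DA LRRK2 TG, Atp1b2 ran from 0.0286 to 0.17 in footprints, -3.04 to 3.47 in RNA-Seq and -3.37 to 3.15 in TE, Atp1b1 from -0.06094 to 0.18 in RNA-Seq and Atp1b3 from 0.0808 to 0.29 in RNA-Seq. In LRRK2 KO, Atp1b3 ran from -0.69 to 0.57 in footprints and -0.79 to 0.47 in TE. Within that SD, LRRK2 KO ran in RNA-Seq from -1.24 to 0.77 for Atp1b1 and -0.72 to 0.19 for Atp1b2, in TE from -0.75 to 1.26 and -0.41 to 1.006, and in footprints from -0.53 to 0.41 and -0.698 to 0.72. Atp1b3 of GS LRRK2 TG ran from 0.0855 to 0.44 in footprints and 0.0967 to 0.45 in TE.

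The fitted limma changes also turned sign, none with a passing p on either side. In GS/DA LRRK2 TG, Atp1b1 ran from -0.0195 to 0.15 in footprints, -0.06088 to 0.18 in RNA-Seq and -0.12 to 0.13 in TE, Atp1b2 from -1.87 to 2.27 in RNA-Seq and -2.17 to 1.97 in TE, and Atp1b3 from -0.0878 to 0.24 in footprints and -0.27 to 0.0511 in TE. In LRRK2 KO, Atp1b1 ran from -0.49 to 0.45 in footprints, -1.11 to 0.59 in RNA-Seq and -0.61 to 1.09 in TE. Atp1b2 ran there from -0.58 to 0.63, -0.68 to 0.13 and -0.30 to 0.91, and Atp1b3 from -0.60 to 0.60, -0.0290 to 0.24 and -0.70 to 0.49, in the same order.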
